A study of Mus musculus with 6 samples.

Results

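Cytochrome P450 genes of families 1 to 4 were examined in tumor RNA from 6 mice. These families hold the P450 enzymes that oxidize drugs, foreign chemicals, fatty acids and steroids. Members were the genes whose symbol begins with Cyp, a digit from 1 to 4 and a letter, leaving out pseudogenes marked -ps and genes without a single count. The rule found 73 members among 55536 genes in the count table, of which 33495 had a count in at least 1 library. The mice were male C3H mice (C3H/HeNCrNarl in the study's methods) of 6 to 8 weeks, and each carried an orthotopic liver tumor grown from HCA-1, a murine hepatocellular carcinoma line. The control group (5, 6 and 7) was untreated. The GOx-DOX-LGP group (1, 2 and 5) received a layered nanogel that carries glucose oxidase, an enzyme that consumes glucose, and the anthracycline doxorubicin. The labels place the injections on days 18, 19 and 20 but the transcriptome analysis on day 17, after 3 h of circulation, whereas the study's methods for RT-qPCR on such tumors place the harvest on the day after the last injection. Which of these holds for the sequenced RNA was not given in the sources used here. Every tumor came from 1 implanted line, and no library of liver without a tumor was analysed here.

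In normal liver these enzymes sit mainly in the endoplasmic reticulum of hepatocytes, where they take electrons from P450 reductase and carry a haem at the active site. Their genes are set by position in the lobule, with most drug-oxidizing members high around the central vein, by sex through growth hormone, and by nuclear receptors that sense bile acids, drugs and fatty acids. Hepatocellular carcinoma commonly loses much of this expression. The 7 members listed here as known outside hepatocytes were Cyp1b1, Cyp2r1, Cyp2s1, Cyp2u1, Cyp4b1, Cyp4f18 and Cyp4v3.

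The libraries did not fall into 2 even groups. Control 5 correlated with the GOx-DOX-LGP libraries at Pearson r from 0.966 to 0.975 across genes on log2 CPM (library-scaled counts, with TMM factors), but with controls 6 and 7 at 0.73 and 0.659. Controls 6 and 7 correlated with each other at 0.969. The summed level of 15 hepatocyte markers, all secreted proteins such as albumin, reached 145046 CPM in control 6 and 225496 CPM in control 7 but only 796 CPM in control 5. It was 4209, 1719 and 2429 CPM in the GOx-DOX-LGP libraries 1, 2 and 5. None of the 15 was absent from the kept genes, and their levels are given beside the P450 values because they move with them. Proliferation markers summed to 962 CPM in control 5, to 267 and 39.1 CPM in controls 6 and 7, and to 667 to 840 CPM in the GOx-DOX-LGP libraries. Macrophage markers summed to 674 to 1506 CPM in the controls and to 1433 to 3789 CPM in the GOx-DOX-LGP group. Library totals lay between 15529940 and 18401178 counts. With these totals multiplied by the TMM factors, 3 counts, taken as the smallest level a library could show, equal 0.132 to 0.323 CPM. In bulk RNA, fewer cells of a type and less RNA per cell cannot be told apart, and the part of these differences in the P450 results was not tested beyond the fits given below.

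The 250 bases before the RefSeq start are printed for 5 members chosen to span the kinds of difference described next. Cyp2e1 and Cyp2c29 were among the members with a large difference in level between the groups, Cyp4v3 lay between, and Cyp1b1 and Cyp4f16 had a higher mean level in the GOx-DOX-LGP group. Each is written 5′ to 3′ on the strand of the gene from RefSeq (GRCm38.p6), with every CG in capitals. They lie at chr7:140763569-140763818 on the plus strand, chr19:39286835-39287084 on the plus strand, chr8:45333164-45333413 on the minus strand, chr17:79715062-79715311 on the minus strand and chr17:32536307-32536556 on the plus strand.
Cyp2e1: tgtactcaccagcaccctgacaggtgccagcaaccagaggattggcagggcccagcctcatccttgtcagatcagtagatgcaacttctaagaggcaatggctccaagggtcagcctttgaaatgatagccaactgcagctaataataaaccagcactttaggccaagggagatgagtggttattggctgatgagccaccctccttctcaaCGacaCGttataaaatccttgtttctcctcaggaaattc
Cyp2c29: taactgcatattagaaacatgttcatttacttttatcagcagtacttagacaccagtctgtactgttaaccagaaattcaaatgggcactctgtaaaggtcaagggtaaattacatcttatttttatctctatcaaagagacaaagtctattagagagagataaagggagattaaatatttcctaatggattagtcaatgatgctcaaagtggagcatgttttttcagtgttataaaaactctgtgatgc
Cyp4v3: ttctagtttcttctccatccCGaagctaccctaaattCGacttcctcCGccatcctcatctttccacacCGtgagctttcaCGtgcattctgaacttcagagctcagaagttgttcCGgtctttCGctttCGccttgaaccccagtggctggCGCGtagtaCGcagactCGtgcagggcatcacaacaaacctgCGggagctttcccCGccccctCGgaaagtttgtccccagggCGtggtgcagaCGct
Cyp1b1: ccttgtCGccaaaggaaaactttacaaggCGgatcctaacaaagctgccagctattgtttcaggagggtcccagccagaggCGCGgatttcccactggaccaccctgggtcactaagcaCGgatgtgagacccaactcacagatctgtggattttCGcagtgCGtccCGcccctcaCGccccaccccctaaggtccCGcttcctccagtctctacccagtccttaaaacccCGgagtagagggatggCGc
Cyp4f16: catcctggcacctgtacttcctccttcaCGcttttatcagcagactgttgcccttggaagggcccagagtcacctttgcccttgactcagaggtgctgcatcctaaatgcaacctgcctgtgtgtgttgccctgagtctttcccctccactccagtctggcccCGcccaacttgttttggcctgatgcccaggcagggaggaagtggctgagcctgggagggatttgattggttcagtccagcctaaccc

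Of the 73 members, 59 had a start in the RefSeq table. Their sequences were poor in CG. The ratio of observed to expected CG was 0.6 or more at 3 of 59 member starts, or 5.08%, against 34.0% of the 32851 starts in the table. These were Cyp4v3 with 17 CG in 250 bases, Cyp2r1 with 16 and Cyp2s1 with 15. Cyp2c29 had 0 CG and Cyp2e1 and Cyp4f16 had 2 each, while Cyp1b1 had 12. The letters TATAAA on the gene's strand, the core of a TATA box, stood before 17 member starts, or 28.8%, against 7.6% of all starts. Cyp2e1 and Cyp2c29 both carry it close to the start. GTTAAT, the core of an HNF1 site, was found on either strand at 8 member starts, or 13.6%, against 6.4% of all starts. GCGTG, the core bound by the AHR receptor, was found on either strand at 13, or 22%, against 28.2%. Many members lie in tandem clusters and share sequence, so these counts are not independent, and a match is only a match of letters.

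P450 RNA was abundant in controls 6 and 7 and scarce in the other 4 libraries. The 73 members summed to 240 CPM in control 5, 29676 CPM in control 6 and 55664 CPM in control 7. They summed to 674, 396 and 434 CPM in GOx-DOX-LGP 1, 2 and 5. Control 5 thus lay below every GOx-DOX-LGP library, and the other controls far above. In raw counts the family took 2.24% and 3.16% of controls 6 and 7 but 0.0297% of control 5 and 0.0479% to 0.0834% of the GOx-DOX-LGP libraries. Members with no count numbered 19, 11 and 11 in the controls and 13, 16 and 15 in the GOx-DOX-LGP libraries.

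**Figure D1:**
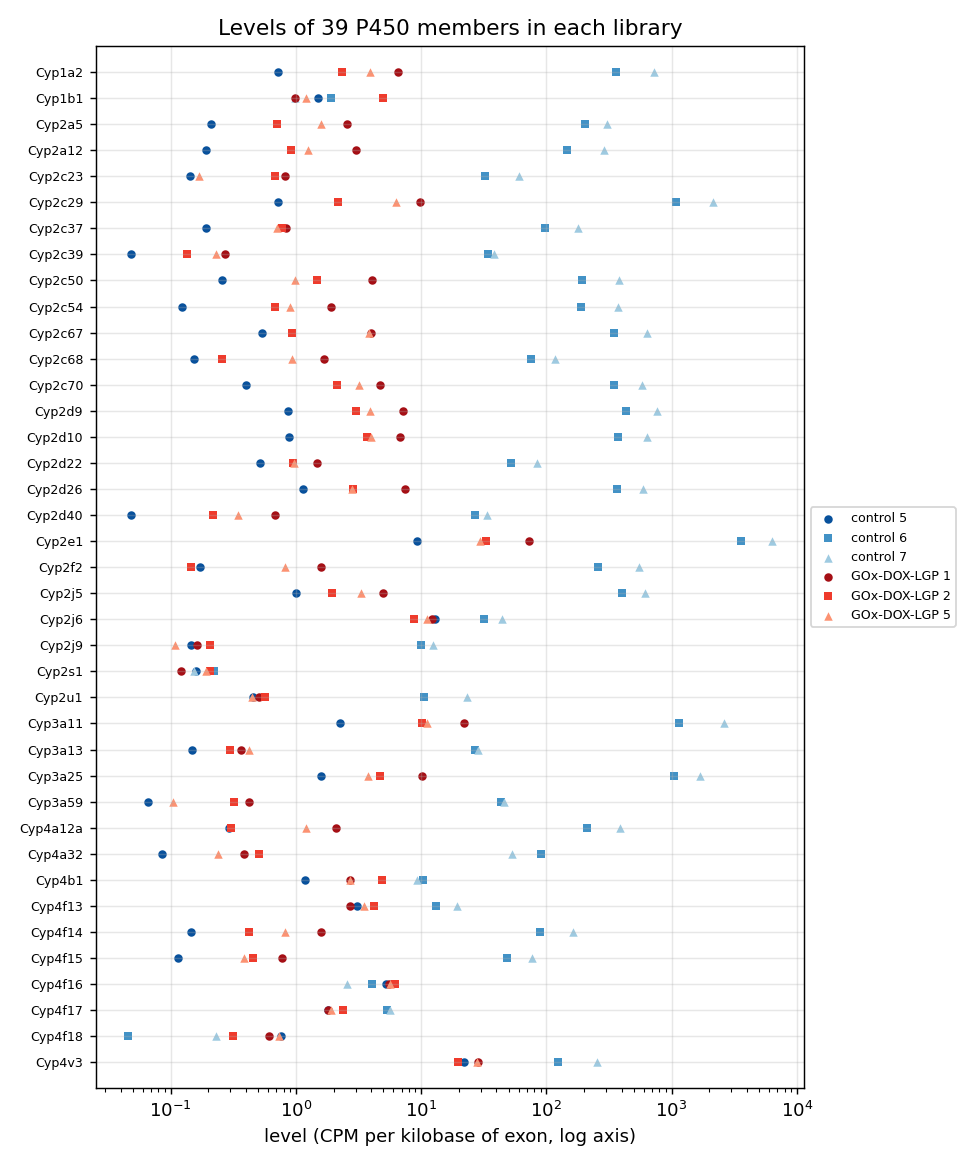
Level of each of the 39 P450 members kept by the filter on low counts, in CPM per kilobase of exon on a log axis, with 1 point for each library (blue for controls, red for GOx-DOX-LGP). Most members show controls 6 and 7 to the right of all other libraries, and Cyp1b1, Cyp2s1, Cyp4f16 and Cyp4f18 do not.

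With all 6 libraries, 0 of the 39 members kept by the default edgeR filter passed an adjusted p under 0.05 in the quasi-likelihood test, against 0% of the 15374 genes tested. Their adjusted p ran from 0.247 to 0.952. At an unadjusted p under 0.05, 33 members were lower and 0 higher, against 14.6% of all genes lower and 2.87% higher. The median log2 fold change (GOx-DOX-LGP over control) of the 39 was -6.26, against 0.02 over all genes, with 36 members below 0 and 3 above. DESeq2 called 41 members, all lower, 10 of them below the edgeR filter, against 8.91% of its genes, and limma voom with quality weights called 35 lower and 2 higher, against 30.9% and 29.2% of all genes. The groups did not overlap for only 1 member that was lower in every GOx-DOX-LGP library (Cyp2j6; 8.31% of all genes) and 1 that was higher (Cyp4f16; 8.87%). Without control 5, edgeR tested 54 members and called 50 lower and 1 higher, against 25.5% and 22.2% of all genes. The edgeR calls thus depended on whether control 5 was included.

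**Figure D2:**
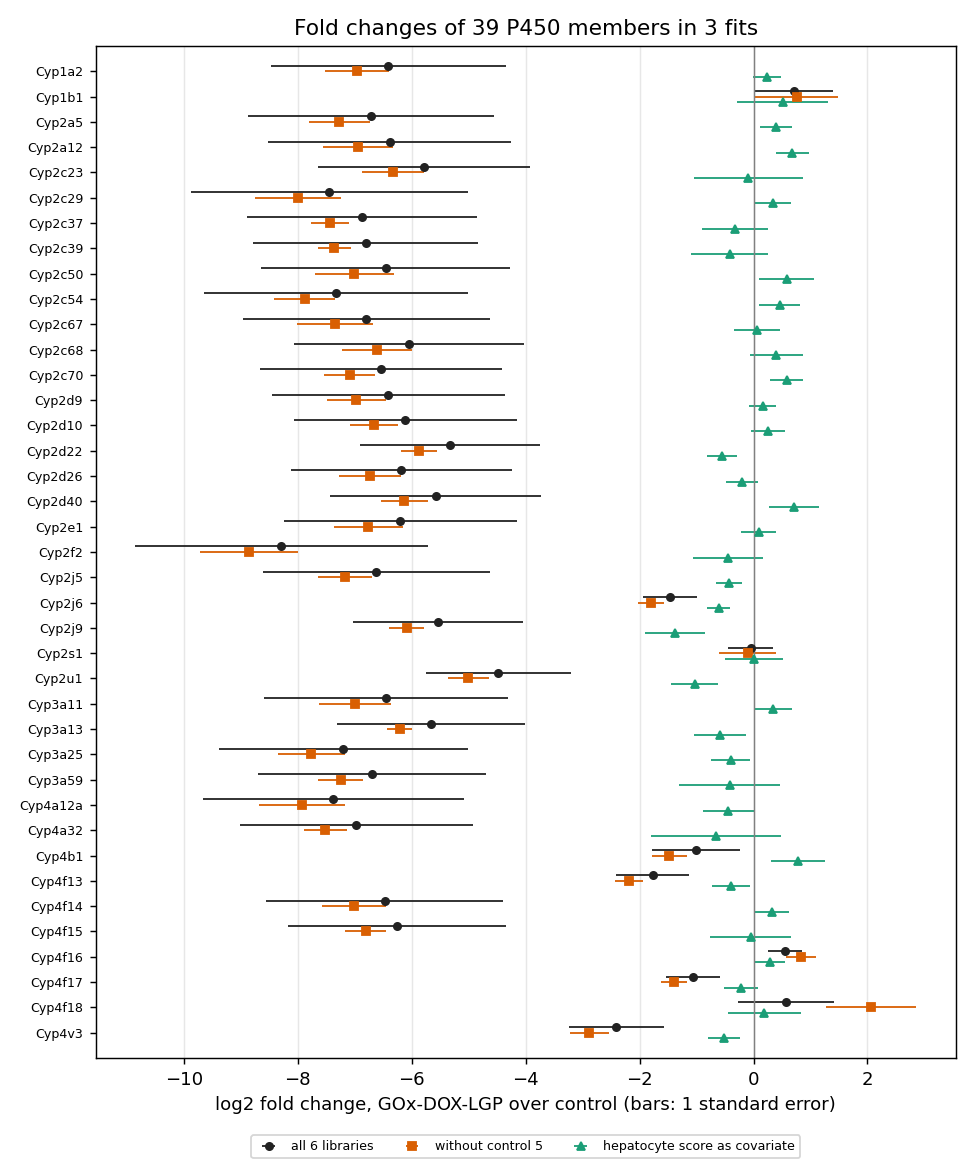
Log2 fold change of GOx-DOX-LGP over control for the 39 members kept, with bars of 1 standard error, from all 6 libraries (black), without control 5 (orange) and with the mean level of the hepatocyte markers in the fit (green). The black values run from -8.29 to 0.71, the orange ones have narrower bars for most members, and the green ones lie around 0.

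The members fell into a group of 30 with log2 fold changes from -8.29 (Cyp2f2) to -4.48 (Cyp2u1) and 9 others above -3. This division was made after the values were seen and carries no test. All 30 had an unadjusted p under 0.05 in edgeR, where 14.6% of all genes were lower at that threshold. The choice by fold change in the same fit favours such p-values, so this count is a description. In 27 of the 30, control 5 lay below every GOx-DOX-LGP library. The share of all genes is not given for this order, so the count cannot be read as a trait of the members.

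The pericentral members are the drug- and toxin-oxidizing enzymes found around the central vein of normal liver. The 8 listed were Cyp2e1, Cyp1a2, Cyp2a5, Cyp2c29, Cyp2c37, Cyp2c50, Cyp2c54 and Cyp3a11. All 8 were lower at an unadjusted p under 0.05 in edgeR (14.6% of all genes), and 8 passed in DESeq2 (8.91%). They were measured in the same libraries and are not replicates. Cyp2e1, which oxidizes ethanol and acetaminophen, had the highest level per kilobase of all members, a mean of 1685 CPM per kilobase over the 6 libraries. Its level was 19.9 CPM in control 5, 7809 CPM in control 6 and 13694 CPM in control 7, and 157, 71.3 and 64.0 CPM in the GOx-DOX-LGP libraries 1, 2 and 5. The means of 7174 ± 6859 and 97.3 ± 51.4 CPM (SD, n = 3 each) gave a log2 fold change of -6.20 ± 2.04 (SE; edgeR adjusted p = 0.247, and 0.000157 without control 5). Control 5 held the lowest value, so the groups overlapped.

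Cyp3a11, the main mouse counterpart of the human drug oxidase CYP3A4, was also highest in control 7 and lowest in control 5. It stood at 11.5, 5811 and 13415 CPM in the controls and 113, 51.2 and 56.3 CPM in the GOx-DOX-LGP group (log2 fold change -6.45 ± 2.14 SE). Cyp2c29 stood at 2.19, 3299 and 6535 CPM against 30.3, 6.66 and 19.4 CPM. Its log2 fold change of -7.45 ± 2.43 was more negative than that of Cyp2e1. The standard errors cannot judge that difference, because both genes were measured in the same libraries. Ratios between them within libraries are given below. Cyp1a2, which oxidizes caffeine, stood at 1.45, 724 and 1462 CPM against 13.2, 4.70 and 7.80 CPM. Cyp2a5, the coumarin hydroxylase, stood at 0.439, 421 and 639 CPM against 5.29, 1.47 and 3.28 CPM. Pericentral markers outside the P450 genes, such as Glul, summed to 115, 4505 and 6589 CPM in the controls and 227, 252 and 153 CPM in the GOx-DOX-LGP group. Of these markers, 7 of 7 were lower at an unadjusted p under 0.05 in edgeR (14.6% of all genes).

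Cyp2f2, known from periportal hepatocytes and from airway cells, showed the most negative log2 fold change of the 39 members, -8.29 ± 2.57 (edgeR adjusted p = 0.247, DESeq2 0.000368). Its level was 0.351, 521 and 1109 CPM in the controls and 3.21, 0.294 and 1.66 CPM in the GOx-DOX-LGP group. Its raw counts of 8 in control 5 and 6 in GOx-DOX-LGP 2 were near the smallest detectable level, and it overlaps an antisense gene, Gm15883, whose reads could not be told apart without a known strand setting. Periportal markers outside the P450 genes summed to 52.6, 6823 and 11998 CPM against 149, 115 and 117 CPM.

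The Cyp2c subfamily, with 14 members on chromosome 19, was the largest. All but Cyp2c23 lie together in a cluster. All 9 of its kept members had log2 fold changes between -7.45 and -5.78. Its summed level was 6.01, 6028 and 11428 CPM in the controls and 69.2, 21.9 and 41.4 CPM in the GOx-DOX-LGP group. Cyp2c37, Cyp2c50 and Cyp2c54 had log2 fold changes of -6.88, -6.46 and -7.33, and Cyp2c70, which makes muricholic acids from bile acids, one of -6.54. Cyp2c39 stood at 0.0877, 62.3 and 69.8 CPM against 0.494, 0.245 and 0.416 CPM. The transcripts of Cyp2c67 and Cyp2c40 share 52.8% and 60.3% of their stretches of 50 bases with other genes, and single values within the cluster are uncertain where reads could match several genes.

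The Cyp3a subfamily had 4 kept members, with log2 fold changes from -7.20 (Cyp3a25) to -5.66 (Cyp3a13). Cyp3a25 stood at 3.29, 2164 and 3538 CPM in the controls and 21.1, 9.70 and 7.91 CPM in the GOx-DOX-LGP group. Cyp3a13, known from intestine as well as liver, was lower in level, with 0.439, 79.4 and 84.0 CPM against 1.09, 0.882 and 1.25 CPM. The Cyp2d subfamily had 5 kept members, with log2 fold changes from -6.41 to -5.32. Cyp2d22, the mouse gene most often set beside human CYP2D6, had the smallest of these and stood at 2.02, 202 and 327 CPM against 5.78, 3.72 and 3.75 CPM.

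Sex-biased members were high in the same libraries as the rest. Cyp2d9 and Cyp4a12a, both male-biased steroid or fatty acid hydroxylases, had log2 fold changes of -6.41 ± 2.04 and -7.38 ± 2.29. Cyp4a12a stood at 0.702, 511 and 941 CPM in the controls and 5.04, 0.735 and 2.91 CPM in the GOx-DOX-LGP group, and shares 48.9% of its stretches of 50 bases with other genes, most with Cyp4a12b. Of 9 female-biased members listed, 5 had counts and 0 passed the filter. Their summed level reached 16.1 and 32.5 CPM in controls 6 and 7 and at most 0.494 CPM elsewhere. Cyp2c40 had 81 and 118 counts and Cyp3a44 60 and 130 counts in controls 6 and 7. The 3 male-biased members summed to 1675 and 3013 CPM there. For the labelled sex, 4 Y-linked genes (Ddx3y, Eif2s3y, Kdm5d and Uty) summed to 168 to 339 CPM in all 6 libraries, while Xist, normally made from an inactive X chromosome, was also detected at 7.5 to 84.2 CPM.

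The Cyp4a subfamily oxidizes the ends of fatty acids, and Cyp4a10 and Cyp4a14 are its members classically induced through PPARα. Cyp4a10 had 1, 736 and 885 counts in the controls and 3, 1 and 1 in the GOx-DOX-LGP libraries. Cyp4a14 had 0, 199 and 188 counts against 2, 0 and 0. Both were left out by the filter, which asks for counts in 3 libraries, and both passed in edgeR without control 5 (adjusted p = 4.6e-05 and 7.44e-05); in DESeq2 with all libraries Cyp4a10 passed and Cyp4a14 did not (adjusted p = 0.000199 and 0.0741).

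The other 32 members below the filter were mostly near silence, and 17 of all 34 had 10 counts or fewer in every library. In 9 of the 34 a library reached 100 counts, always control 6 or 7. Cyp2b10, the classical target of the receptor CAR, had 0, 152 and 143 counts in the controls and 5, 1 and 1 in the GOx-DOX-LGP group. Cyp2r1, a vitamin D 25-hydroxylase, had 6, 137 and 135 counts against 8, 4 and 6. Cyp1a1, the classical target of the AHR receptor, had 2, 24 and 36 counts against 7, 0 and 0. Its adjusted p was 0.0106 in edgeR without control 5 and 0.134 in DESeq2 with all libraries. Without control 5 it entered the test through controls 6 and 7 alone, which favours a lower call.

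**Figure D3:**
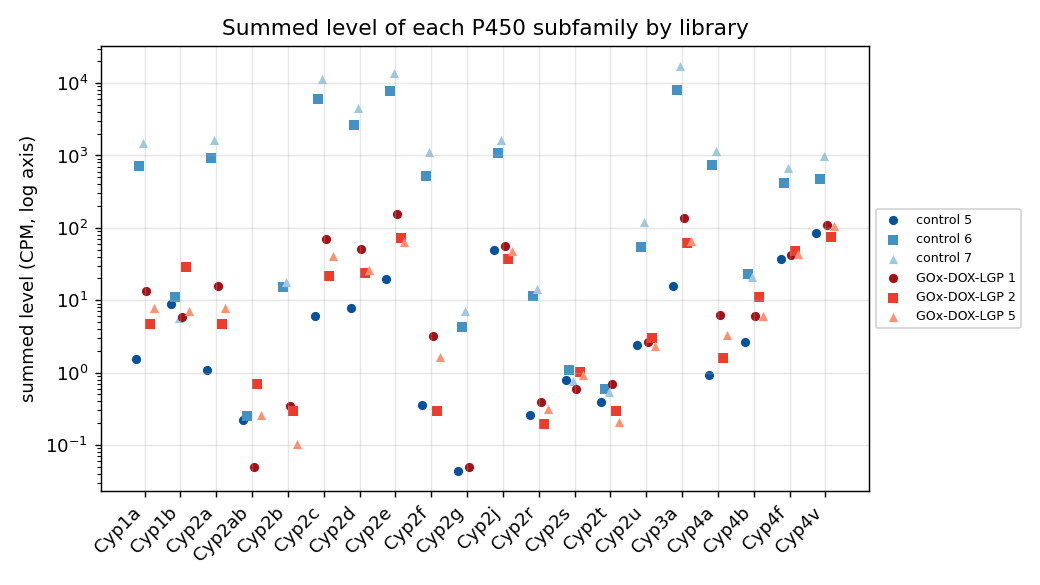
Summed level of each P450 subfamily in CPM on a log axis, with 1 point for each library (blue for controls, red for GOx-DOX-LGP); sums of 0 are not drawn and 2 subfamilies with fewer than 10 counts in every library are left out. Controls 6 and 7 lie far above the other 4 libraries for Cyp2c, Cyp2e and Cyp3a, while Cyp1b, Cyp2s and Cyp2t show no such gap.

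The epoxide-forming Cyp2j subfamily was divided. Cyp2j5, found in liver and kidney, stood at 2.37, 936 and 1433 CPM in the controls and 11.7, 4.56 and 7.80 CPM in the GOx-DOX-LGP group (log2 fold change -6.62 ± 1.99). Cyp2j9 had the smallest unadjusted p of any kept member (0.00956 in edgeR with all libraries, log2 fold change -5.54 ± 1.5). Cyp2j6, a more widely expressed member, stood at 46.1, 115 and 161 CPM against 44.2, 31.6 and 40.1 CPM. It was the only kept member lower in every GOx-DOX-LGP library than in every control, although control 5 and GOx-DOX-LGP 1 were separated by little. Its log2 fold change was -1.47 ± 0.47 (edgeR adjusted p = 0.247; two-sided exact permutation p = 0.1, the smallest that 3 against 3 allows). Without control 5 it was -1.80 ± 0.22 (edgeR adjusted p = 0.000726).

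The Cyp4f genes, which inactivate leukotrienes and other lipid mediators, differed widely in fold change. Cyp4f14 and Cyp4f15 had log2 fold changes of -6.47 and -6.26, Cyp4f13 and Cyp4f17 of -1.77 and -1.06, and Cyp4f16 and Cyp4f18 of 0.55 and 0.57. Cyp4f16 stood at 16.0, 12.5 and 7.86 CPM in the controls and 17.0, 18.9 and 17.3 CPM in the GOx-DOX-LGP group, without overlap (0.55 ± 0.30; edgeR adjusted p = 0.375; two-sided exact permutation p = 0.1). It was the 1 member called higher by edgeR without control 5 (0.83 ± 0.26, adjusted p = 0.0348), and 17.4% of its stretches of 50 bases also occur in other genes. Cyp4f18, known from neutrophils and other leukocytes, had only 32, 1 and 4 counts against 23, 12 and 26, and it overlaps the antisense gene Zfp961. Its log2 fold change was 2.07 without control 5 and 0.09 without control 6 (edgeR adjusted p = 0.0647 and 0.969), and 2.80 in limma voom (adjusted p = 0.00373). Leukocyte markers summed to 374, 242 and 140 CPM in the controls and 378, 531 and 541 CPM in the GOx-DOX-LGP group, and neutrophil markers to 18.5, 22.7 and 7.96 CPM against 15.6, 24.2 and 54.5 CPM.

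Of 7 members listed as known outside hepatocytes, 6 were kept, with a median log2 fold change of -0.53. At an unadjusted p under 0.05 in edgeR, 2 of these were lower and 0 higher (14.6% and 2.87% of all genes). Limma voom called 3 of them lower and 1 higher (30.9% and 29.2%). The member left out, Cyp2r1, had a DESeq2 log2 fold change of -4.84 (adjusted p = 0.00168). Of all 7, DESeq2 called 3 lower (8.91% of all genes). Without control 5, edgeR called 4 lower and 0 higher (25.5% and 22.2%). Cyp4v3, a broadly expressed fatty acid hydroxylase, stood at 84.6, 477 and 970 CPM in the controls and 108, 75 and 106 CPM in the GOx-DOX-LGP group (log2 fold change -2.41 ± 0.83; edgeR adjusted p = 0.247, DESeq2 0.0404). Cyp4b1, found in lung, stood at 2.68, 23.2 and 21.0 CPM against 6.13, 11.0 and 6.09 CPM. Cyp2s1, an epithelial member, lay between 0.593 and 1.10 CPM in all 6 libraries. Its log2 fold change of -0.05 ± 0.39 turned to 0.48 when scaled by library totals alone. Cyp2u1, a long-chain fatty acid hydroxylase, had the most negative value of the kept members of this list, -4.48 ± 1.27, and stood at 2.37, 54.8 and 122 CPM against 2.67, 2.99 and 2.34 CPM, and it overlaps the antisense gene 4930534D22Rik.

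Cyp1b1, which oxidizes estrogens and is known from stromal cells, had the highest log2 fold change, 0.71 ± 0.69 (edgeR adjusted p = 0.569). It stood at 8.82, 11.1 and 5.70 CPM in the controls and 5.78, 29.0 and 7.08 CPM in the GOx-DOX-LGP group, so that GOx-DOX-LGP 2 alone was high. Without that library the log2 fold change was -0.39. Fibroblast markers summed to 5737, 1748 and 1425 CPM in the controls and 4591, 6912 and 2197 CPM in the GOx-DOX-LGP group, with GOx-DOX-LGP 2 the highest of the 6. Their part in the Cyp1b1 level was not tested.

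The make-up of the P450 RNA differed between libraries as well as its amount. The 9 members with log2 fold changes above -3 took 2.41% and 2.28% of the P450 counts in controls 6 and 7. They took 74.9% in control 5 (95% Wilson interval 73.7 to 76.0), and 29.7%, 48.8% and 46.3% in GOx-DOX-LGP 1, 2 and 5. Cyp4v3 alone held 35.2% in control 5 and 16.0% to 24.5% in the GOx-DOX-LGP group, against 1.61% and 1.74% in controls 6 and 7. Cyp2e1 held 26.3% and 24.6% in controls 6 and 7, 8.30% in control 5 and 23.2%, 18.0% and 14.8% in the GOx-DOX-LGP group. The Cyp2c subfamily held 20.3% and 20.5% in controls 6 and 7, 2.5% in control 5, and 10.3%, 5.54% and 9.54% in the GOx-DOX-LGP group. Intervals and floors cover counting error only. The members above -3 were chosen by their values, so these shares are a description.

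**Figure D4:**
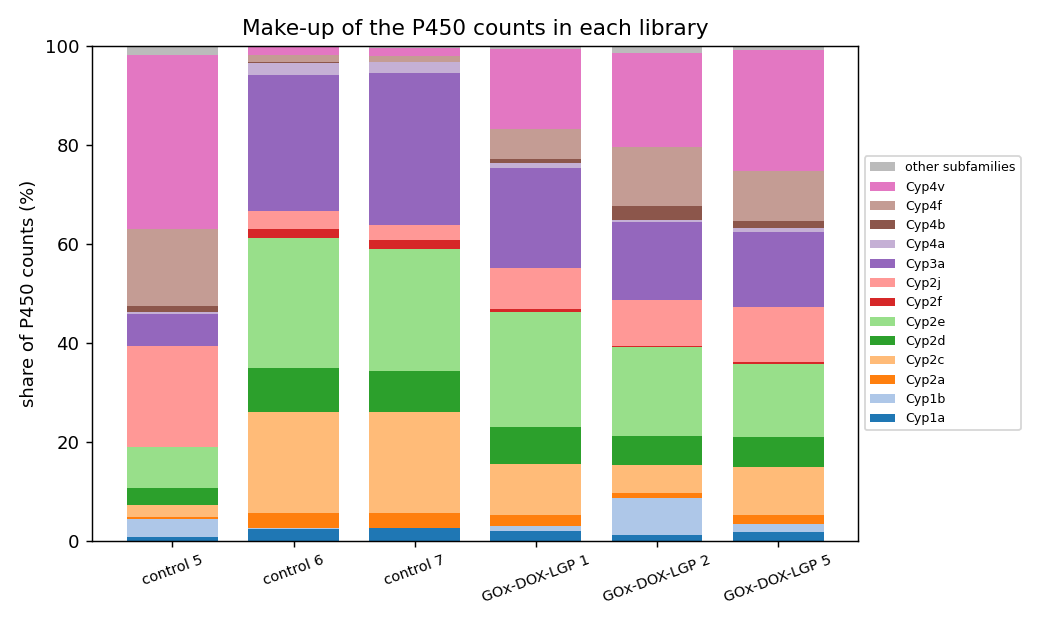
Share of all P450 counts taken by each subfamily in each of the 6 libraries, in percent, as stacked bars. Controls 6 and 7 have nearly the same make-up, led by Cyp2c, Cyp2e and Cyp3a, while Cyp4v takes 35.2% in control 5 and 16.0% to 24.5% in the GOx-DOX-LGP libraries.

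P450 counts were next set against the counts of the 15 hepatocyte markers in the same library. For all members together there were 30.1, 20.5 and 24.7 P450 counts per 100 marker counts in the controls and 16.0, 23.0 and 17.8 in the GOx-DOX-LGP group. Without the 9 members above -3 there were 7.57, 20.0 and 24.1 against 11.3, 11.8 and 9.59. On this scale the spread of Cyp2e1 between the highest and lowest library was 2.43-fold, where that of its level was 688-fold. Per 10000 marker counts Cyp2e1 had 250, 538 and 607 counts in the controls and 372, 415 and 264 in the GOx-DOX-LGP group. Cyp2c29 had 27.5, 227 and 290 against 71.9, 38.7 and 79.9, and Cyp2f2 had 4.41, 35.9 and 49.2 against 7.63, 1.71 and 6.85. Of the 30 members with the most negative fold changes, 23 were lower on this scale in every GOx-DOX-LGP library than in controls 6 and 7, and 1 (Cyp2u1) was higher. Control 5 was lower than controls 6 and 7 for 26 of the 30. The 30 were chosen by fold changes that rest on the same libraries, which favours lower ratios outside controls 6 and 7, so these counts are a description. The share of all genes is not given for them, so they cannot be read as a trait of the members. Over all members control 5 had the highest ratio of the 6 libraries.

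**Figure D5:**
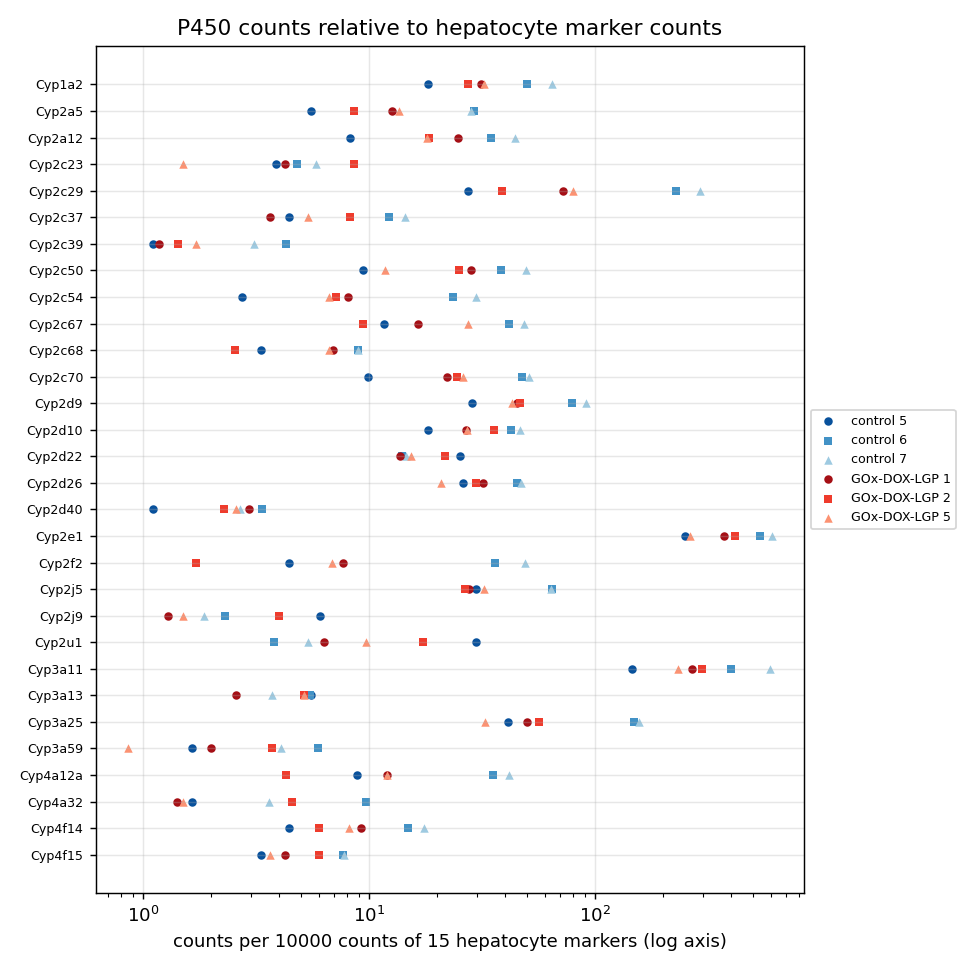
Counts of each of the 30 members per 10000 counts of the 15 hepatocyte markers, on a log axis, with 1 point for each library (blue for controls, red for GOx-DOX-LGP). Controls 6 and 7 lie to the right of the 3 GOx-DOX-LGP libraries for 23 members, and control 5 lies to the left of both for 26. The members were chosen by fold change, so these counts are a description.

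Ratios between members did not stay constant either. There were 15 and 12.4 Cyp2e1 counts for each Cyp2f2 count in controls 6 and 7 but 56.8 in control 5 (exact 95% interval 28.6 to 132), and 48.7, 242 and 38.5 in GOx-DOX-LGP 1, 2 and 5. The lowest bound among these 4 libraries, 27.1 in GOx-DOX-LGP 5, lay above both values of controls 6 and 7. Cyp2c29 had 0.422 and 0.477 counts for each Cyp2e1 count in controls 6 and 7, 0.11 in control 5, and 0.193, 0.0935 and 0.303 in the GOx-DOX-LGP group. Cyp3a11 was steadier against Cyp2e1, with 0.579, 0.744 and 0.98 in the controls and 0.723, 0.719 and 0.88 in the GOx-DOX-LGP group. For each Cyp4a10 count there were 125 and 144 Cyp2e1 counts in controls 6 and 7, and 1056 (361 to 5122), 1455 (261 to 57508) and 1231 (221 to 48661) in GOx-DOX-LGP 1, 2 and 5. In control 5 there were 454 (81.1 to 17971), an interval that contains the values of controls 6 and 7. DESeq2 log2 fold changes of Cyp2f2, Cyp2c29 and Cyp4a10 were -8.27, -7.42 and -9.27, more negative than the -6.17 of Cyp2e1. That favours such differences between the GOx-DOX-LGP group and controls 6 and 7, so these ratios are a description. Their intervals cover counting error only.

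When the mean log2 CPM of the 15 markers entered the edgeR fit as a covariate, the median log2 fold change of the 39 members was 0.01, with 19 members below 0 and 20 above. The 30 members then lay between -1.38 and 0.71. The smallest adjusted p was 0.574, and 4 members had an unadjusted p under 0.05 (Cyp2a12, Cyp2j6, Cyp2j9 and Cyp2u1), against 7.53% of all genes. In 17 of the 39 members the 6 libraries stood in exactly the order of the summed hepatocyte markers, against 2.57% of all genes. This last count was added after the data had been seen. No control had a marker level within the range of the GOx-DOX-LGP group. The mean log2 CPM of the markers was 4.84, 12.36 and 12.83 in the controls and 7.3, 6.02 and 6.58 in the GOx-DOX-LGP group. The group effect was thus estimated from few libraries and rests on the straight line that this fit assumes between marker level and gene level.

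Electron donors of P450 enzymes and enzymes that make or break down haem had lower fitted levels in the GOx-DOX-LGP group for 16 of 18 genes listed. Hmox1, Hmox2, Blvra and Blvrb are the genes of haem breakdown among them. Of these 18, all were kept, 0 passed the adjusted p of edgeR, and 8 were lower and 0 higher at an unadjusted p under 0.05, against 14.6% and 2.87% of all genes. DESeq2 called 6 lower (8.91% of all genes), limma voom 15 lower and 0 higher (30.9% and 29.2%), and edgeR without control 5 called 15 lower (25.5%). Their median log2 fold change was -1.23. Por, the reductase that feeds every microsomal P450, stood at 59.0, 210 and 338 CPM in the controls and 55.5, 62.9 and 40.7 CPM in the GOx-DOX-LGP group (log2 fold change -1.93 ± 0.62; edgeR adjusted p = 0.247). Control 5 lay within the range of the GOx-DOX-LGP libraries. Pgrmc1, a haem-binding partner of P450 enzymes, had the most negative fitted value, -3.31 ± 1.05. Hmox1, which degrades haem and responds to oxidative stress, had the most positive, 0.56 ± 0.29 (edgeR adjusted p = 0.357), with 26.1, 46.8 and 35.2 CPM in the controls and 62.0, 55.7 and 41.2 CPM in the GOx-DOX-LGP group, which overlapped.

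Of 19 receptors and factors known to control P450 genes, 14 were kept. Of these 14, 0 passed the adjusted p of edgeR, and 9 were lower and 0 higher at an unadjusted p under 0.05 (14.6% and 2.87% of all genes), while limma voom called 11 lower and 1 higher (30.9% and 29.2%). The other fits tested more of the 19. DESeq2 called 12 lower (8.91% of all genes), and edgeR without control 5, which tested 18, called 15 lower and 1 higher (25.5% and 22.2%). Nr1i2 (PXR), the drug-sensing receptor that induces Cyp3a11, stood at 0.395, 38.9 and 64.4 CPM in the controls and 0.89, 0.882 and 0.572 CPM in the GOx-DOX-LGP group (log2 fold change -5.45 ± 1.59). Nr1i3 (CAR), which induces Cyp2b10, was below the filter with 0.0877, 22.1 and 33.4 CPM against 0.346, 0.196 and 0.104 CPM. Hnf4a, a hepatocyte identity factor, had a log2 fold change of -5.63 ± 1.75 and Ppara, the fatty acid receptor behind Cyp4a10, the most negative value of -5.75 ± 1.83.

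The aryl hydrocarbon receptor differed from these. Ahr stood at 59.3, 78.4 and 65.4 CPM in the controls and 53.1, 111 and 40.3 CPM in the GOx-DOX-LGP group, a log2 fold change of 0.01 ± 0.41. Tiparp, a target and repressor of this receptor, had the highest value of the list, 0.80 ± 0.75 (edgeR adjusted p = 0.56), with 121, 25.8 and 15.6 CPM against 101, 93.8 and 87.6 CPM. Control 5 was the highest library for Tiparp, and without it Tiparp was the 1 regulator that edgeR called higher (adjusted p = 0.000543). Bcl6, a factor tied to sex-biased liver genes, was lower in every GOx-DOX-LGP library, with 64.1, 130 and 146 CPM against 48.0, 60.7 and 45.9 CPM (-1.14 ± 0.35; edgeR adjusted p = 0.247).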

How the data were processed

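RNA from 3 untreated and 3 GOx-DOX-LGP tumors was sequenced from KAPA mRNA HyperPrep libraries, and samples were grouped by their labels. The authors deposited raw counts per gene without normalization, and a signal table of those counts after division by library size factors. The study's methods name TopHat and HTSeq, while the submitters' processing notes name Trimmomatic 0.38, HISAT2 2.1.0 and featureCounts 2.0.0. The build, annotation and strand setting of the counting were not given in the sources used here. The signal table gave the gene symbols only.

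Counts were tested with edgeR 4.0.16 in R 4.3.3 (default filterByExpr, TMM, quasi-likelihood test, no covariate, Benjamini-Hochberg over 15374 genes, threshold 0.05). Log2 CPM used a prior count of 2. DESeq2 1.42.0, limma 3.58.1 (voom with quality weights), other scalings, no filter, a hepatocyte covariate and leaving out each library were the alternatives. P-values of the fits set the difference between the groups against the spread between samples within them. Positions, exon lengths and shared stretches of 50 bases came from GENCODE M21 (GRCm38), which held all 73 members, and promoters from RefSeq (GRCm38.p6). The fit was tested on simulated counts with 200 changed genes.

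The members, role groups and gene lists were chosen with earlier results of these data known. Named were members with well known roles, the 5 with the smallest p, those without overlap, the highest member per kilobase of each subfamily, and for partners and regulators Por, Nr1i2, Nr1i3, Ahr, Hnf4a and the largest rise and fall. Others were named after their values were seen.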

Additional observations from a re-analysis of the deposited data

How the results depend on the processing

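No paired analysis was possible because the groups share only the number 5. The count of P450 members with an adjusted p under 0.05, 0 in edgeR, was 41 with DESeq2 and 37 with limma voom, and 0 to 51 when 1 library was left out, with 51 without control 5 and 0 without any other. It stayed 0 with 3 other scalings, without the filter and with the hepatocyte covariate. Without control 5 the filter could also let in members through controls 6 and 7 alone, which favours lower calls. Members lower in every GOx-DOX-LGP library numbered 2 without the filter and 1 to 50 with 1 library left out (50 without control 5, 5 without GOx-DOX-LGP 1), and members higher in every one 1 to 2 (2 without control 5). Fewer libraries make such separation easier for any gene. The share of all genes is not given for these settings, so these counts cannot be read as a trait of the members. The median log2 fold change of -6.26 lay between -6.83 and -5.39 with 1 library left out, and changed sign to 0.01 with the hepatocyte covariate. That covariate also changed the sign of Cyp1a2 (0.24), Cyp2a5 (0.39), Cyp2c29 (0.34), Cyp2c50 (0.58), Cyp2c54 (0.46), Cyp2c70 (0.58), Cyp2d9 (0.16), Cyp2e1 (0.09), Cyp2s1 (0.01), Cyp3a11 (0.35), Cyp4b1 (0.78) and Cyp4f14 (0.32). Cyp2s1 was 0.48 with library totals, 0.13 with the upper quartile, 0.02 without the filter and -0.18 to 0.18 with 1 library left out. Cyp1b1 was -0.49 with voom and -0.39 to 1.10 with 1 library left out. Cyp4f18 moved from 0.57 to between 0.09 (without control 6) and 2.07 (without control 5), and to 2.80 with voom. Cyp4f16 moved from 0.55 to 0.31 without control 7 and 0.83 without control 5, Cyp4b1 from -1.01 to -0.61 without control 6 and -1.72 with voom, and Cyp4v3 from -2.41 to -1.55 without control 7. With library totals Cyp2j6 was -0.72, Cyp4f13 -0.95, Cyp4b1 -0.21 and Cyp4v3 -1.52. Scaling by library totals alone moved the median of all genes to 0.51, and that of the members to -5.32. Of 29 named members, 22 passed in DESeq2 (8.91% of all genes lower) and 27 in voom (30.9% lower and 29.2% higher). In edgeR 26 passed without control 5 (25.5% and 22.2%), and 0 with all libraries. The cause of these differences was not tested beyond these fits. Depth limits the members below the filter, of which 23 of 34 had 3 counts or fewer in every GOx-DOX-LGP library.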
